A study of Mus musculus with 4 samples.

Results

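Methylation of histone H3 at lysine 36 is written and removed by a small set of enzymes, and the 10 genes described here encode 5 of the methyltransferases (Setd2, Nsd1, Nsd2, Nsd3 and Ash1l) and 5 of the demethylases (Kdm2a, Kdm2b, Kdm4a, Kdm4b and Kdm4c). They were chosen by name for what their proteins do to this residue, and all 10 were found among 78275 genes of the count table and among 19736 that passed the filter on low counts. The cells were spermatogonia-enriched preparations from testes of 129S1/Sv mice at postnatal day (Pnd) 5. There were 2 Sirt7-/- samples (genotype label KO) and 2 wild-type (WT) samples, with no treatment in either genotype. The cells were enriched by plating out somatic cells and were not sorted, and neither how many mice gave a pellet of 200000 cells nor the part of Sirt7 that is deleted was given in the sources used here.

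Lysine 36 of H3 can carry a methyl mark or an acetyl mark, and SIRT7 is a deacetylase that removes the acetyl mark. SETD2 travels with elongating RNA polymerase II and places trimethylation over gene bodies, whereas NSD1, NSD2, NSD3 and ASH1L place monomethylation and dimethylation. KDM2A and KDM2B remove these lower states and hold a CXXC zinc finger that binds unmethylated CpG sites. KDM4A, KDM4B and KDM4C remove trimethylation at lysine 36 and also methylation at H3 lysine 9. In the male germ line, NSD1-dependent dimethylation guides DNA methylation by DNMT3A before birth. The comparison here asks whether the transcripts of the enzymes differed between Sirt7-/- and WT cells.

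The 10 genes lay on 8 chromosomes, and 0 of them on chromosome 11, which holds Sirt7. Of the 10, 4 had an entry in the RefSeq promoter table (GRCm38.p6), namely Setd2, Kdm2b, Kdm4a and Kdm4c. Nsd1, Nsd2, Nsd3, Ash1l, Kdm2a and Kdm4b had none. The 250 bases before the start are shown for Setd2 and Kdm4a, a writer and an eraser with a single listed start each, with every CG in capitals because CG is the site that the CXXC fingers of KDM2A and KDM2B read. The Setd2 stretch is chr9:110532347-110532596 on the plus strand, and the Kdm4a stretch is chr4:118180044-118180293 on the minus strand. Both are printed 5′ to 3′ along the gene.
Setd2: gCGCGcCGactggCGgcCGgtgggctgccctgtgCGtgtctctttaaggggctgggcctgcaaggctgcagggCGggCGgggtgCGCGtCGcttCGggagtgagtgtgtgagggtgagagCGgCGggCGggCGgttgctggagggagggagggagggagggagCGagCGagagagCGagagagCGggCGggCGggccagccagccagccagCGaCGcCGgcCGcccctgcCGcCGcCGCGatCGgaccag
Kdm4a: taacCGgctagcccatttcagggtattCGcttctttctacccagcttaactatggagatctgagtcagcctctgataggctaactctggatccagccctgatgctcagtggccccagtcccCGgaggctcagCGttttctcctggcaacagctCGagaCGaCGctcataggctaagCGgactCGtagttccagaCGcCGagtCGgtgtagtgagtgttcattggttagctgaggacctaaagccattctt
The Setd2 stretch held 31 CG sites and the Kdm4a stretch 12. Among 32851 promoter stretches of the same length, 5.19% held at least 31 and 33.5% at least 12, with a median of 6. CG reads the same on both strands, and 92.1% of all stretches held at least 1. Kdm2b had 4 listed starts, with 12 to 38 CG sites each, and Kdm4c had 2, with 0 and 19. Of the 8 stretches of the 4 genes, 7 held more than the median. These letters are a description of the windows and not a measurement of binding.

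The libraries were of nearly equal depth, from 22007504 to 22181066 counts, and the trimmed-mean (TMM) scaling factors ran from 0.994 to 1.00. The cells matched their label in part. Germ cell genes such as Dazl (612 ± 40.0 CPM in Sirt7-/- and 622 ± 47.9 CPM in WT, SD, n = 2 each, where CPM is the count per 1000000 counts of the scaled library) and Zbtb16 (means of 267 CPM in Sirt7-/- and 272 CPM in WT) were abundant. The summed level of 5 germ cell markers was 1554 and 1395 CPM in Sirt7-/- and 1452 and 1539 CPM in WT. For 8 markers of undifferentiated spermatogonia it was 1669 and 1500 CPM in Sirt7-/- and 1580 and 1569 CPM in WT. For 7 Sertoli cell markers it was 1887 and 2375 CPM in Sirt7-/- and 2089 and 2028 CPM in WT. Of that sum, Clu alone gave 943 and 1297 CPM in Sirt7-/- and 1046 and 1050 CPM in WT. The writers and erasers are not restricted to germ cells, so their counts can come from any cell in the preparation, and fewer cells of a type cannot be told apart from less RNA per cell. Sirt7 was at 129 and 122 counts in the Sirt7-/- libraries and at 704 and 692 in the WT libraries (log2 fold change -2.47 with an SE of 0.11, adjusted p = 3.63e-06 in edgeR's quasi-likelihood fit), a call that was lost when either WT library was left out or low counts were not filtered. The methods describe the RNA-seq replicates as independent biological ones, the labels only number them, and each p-value rests on how far these libraries scatter.

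All 10 genes were expressed, with 450 to 5474 counts per library, and they differed among themselves 6.05-fold in level. Levels are compared between genes as CPM per kb of the Ensembl canonical transcript. Nsd2 was highest, at 31.9 and 29.2 CPM per kb in Sirt7-/- and 32.7 and 33.1 CPM per kb in WT, and its range over the libraries lay above that of the next gene. Kdm2b, Kdm4a, Setd2 and Kdm2a formed a second tier, with means over the 4 libraries of 4.94, 4.80, 4.57 and 4.47 times the lowest gene, and each overlapped its neighbour in this order, while Kdm2a lay above the next gene, Kdm4b. Kdm4b, Ash1l and Nsd1 followed at 2.42, 2.19 and 2.01 times the lowest, again with overlapping neighbours. Nsd3 was at 7.62 and 8.01 CPM per kb in Sirt7-/- and 8.61 and 7.89 CPM per kb in WT. Kdm4c was lowest, at 4.81 and 5.47 CPM per kb in Sirt7-/- and 5.37 and 5.31 CPM per kb in WT, and neither Nsd3 nor Kdm4c overlapped the gene above it. The order above Nsd3 depended on the length used. With the summed length of all annotated exons in place of the canonical transcript, Kdm4a was highest, Nsd2 was the fourth and Kdm4b the eighth, whereas Nsd3 and Kdm4c kept their places.

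**Figure D1:**
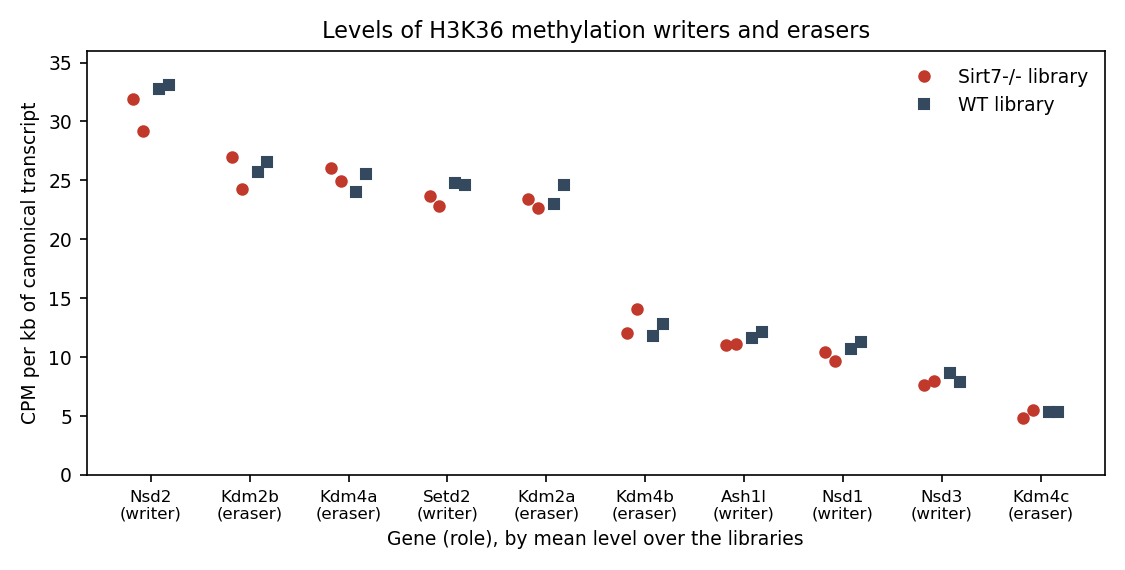
Level of each gene in CPM per kb of canonical transcript (y axis), genes ordered by their mean over the libraries (x axis), with 1 point per library (circles Sirt7-/-, squares WT, n = 2 each). Nsd2 stands above the rest at 29.2 to 33.1, a tier of 4 genes follows, and Kdm4c is lowest at 4.81 to 5.47.

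Within the families the proportions, on canonical length, overlapped between the genotypes. Their sizes depended on the length used. On summed exon length the means over the 4 libraries were 12.3 CPM per kb for Nsd2, 7.15 for Nsd1 and 5.16 for Nsd3. For Kdm4a, Kdm4b and Kdm4c they were 19.6, 5.81 and 1.53 CPM per kb. The values that follow are on canonical length. Nsd2 supplied 63.8% and 62.3% of the summed per-kb level of the NSD genes in Sirt7-/- and 62.9% and 63.3% in WT. Nsd1 gave 20.9% and 20.6% in Sirt7-/- and 20.6% and 21.6% in WT, and Nsd3 the rest. Among Kdm4a, Kdm4b and Kdm4c, Kdm4a supplied 60.7% and 56.1% in Sirt7-/- and 58.3% and 58.5% in WT, and Kdm4c 11.2% and 12.3% in Sirt7-/- and 13.0% and 12.2% in WT. The per-kb level of Kdm2b was 1.15 and 1.07 times that of Kdm2a in Sirt7-/- and 1.12 and 1.08 times in WT.

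No writer or eraser gene was called between Sirt7-/- and WT. With edgeR's quasi-likelihood test and Benjamini-Hochberg adjustment over 19736 genes, 0 of 10 had an adjusted p under 0.1, where 0.0861% of all genes did (0.0405% higher and 0.0456% lower), and 0 of 10 had an unadjusted p under 0.05, where 8.62% of all genes did (4.48% higher and 4.14% lower). DESeq2 and limma-voom also called 0. The smallest adjusted p was 0.635, for Nsd1. The 95% intervals hold for each gene taken singly, with no adjustment for the 10 genes, and cover the spread between libraries only. As a change relative to WT, the lowest bound of any gene was -17.6% (Nsd1) and the highest was 21.2% (Kdm4b).

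Of the 5 writers, all had negative fold changes, none past the threshold, and in 4 of them both Sirt7-/- libraries lay below both WT libraries. Both Sirt7-/- libraries lay below both WT libraries in 19.4% of all genes tested and above them in 20.3%, or 39.7% in either direction. The median of the writers was -0.11 on the log2 scale, against 0.0029 over all genes tested. The median size of change, without its sign, was 0.11 for the writers and 0.11 for all genes. These sets differ in abundance, as the writers stood between percentiles 84.2 (Nsd3) and 96.3 (Nsd2) of mean CPM over all genes tested.

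Setd2 (chromosome 9, 110358262 to 110447701, GRCm39), the writer of trimethylation, was at 199.8 and 193 CPM in Sirt7-/-, against 209 and 208 CPM in WT. The Sirt7-/- libraries were lower and the groups did not overlap. Its log2 fold change was -0.08 ± 0.06 (SE, 95% interval -0.22 to 0.05, adjusted p = 0.733), a change of -5.64%. Its counts were 4395 and 4243 in Sirt7-/- and 4600 and 4598 in WT. The WT libraries differed by 0.0093 on the log2 scale, less than the 0.049 between the Sirt7-/- libraries.

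Nsd1 (chromosome 13, 55357560 to 55466138), a dimethyltransferase needed for DNA methylation in male germ cells, was at 134 and 124 CPM in Sirt7-/-, against 137 and 145 CPM in WT. The groups did not overlap, although the higher Sirt7-/- library was close to the lower WT library. Its log2 fold change of -0.13 ± 0.07 (95% interval -0.28 to 0.02) was the lowest of the 10 genes. Nsd2 (chromosome 5, 33977734 to 34055319) had the highest CPM of the writers. It was at 238 and 218 CPM in Sirt7-/-, against 244 and 247 CPM in WT (-0.11 ± 0.06, adjusted p = 0.679 in edgeR). Sirt7-/- replicate 2 was the low library for both of these genes. Without it their fold changes were -0.07 for Nsd1 and -0.04 for Nsd2, and without Sirt7-/- replicate 1 they were -0.19 and -0.17. A lone Sirt7-/- library remained in each of these fits.

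Nsd3 (chromosome 8, 26091527 to 26209694), a paralog of Nsd1 and Nsd2, was at 82.1 and 86.2 CPM in Sirt7-/-, against 92.7 and 84.9 CPM in WT. Its groups overlapped, with WT replicate 1 alone above the others (-0.08 ± 0.07, adjusted p = 0.794). Without that library its fold change was -0.01. Ash1l (chromosome 3, 88857929 to 88986682), the mammalian counterpart of a Drosophila Trithorax group gene, was at 128 and 129 CPM in Sirt7-/-, against 136 and 142 CPM in WT. Its Sirt7-/- libraries were within 0.012 of each other on the log2 scale and both were lower than WT (-0.11 ± 0.06, adjusted p = 0.673).

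Of the 5 erasers, 2 had positive and 3 negative fold changes, none past the threshold, with a median of -0.03, and in all 5 the libraries of the genotypes overlapped. Kdm2a (chromosome 19, 4364447 to 4448313) was at 210.4 and 204 CPM in Sirt7-/-, against 207 and 221 CPM in WT (-0.05 ± 0.06, 95% interval -0.19 to 0.09). Its paralog Kdm2b (chromosome 5, 123008720 to 123127886), which brings a variant Polycomb complex to CpG islands, was at 146 and 131 CPM in Sirt7-/-, against 139 and 144 CPM in WT. The Sirt7-/- libraries of Kdm2b enclosed both WT libraries (-0.03 ± 0.07, adjusted p = 0.940).

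Kdm4a (chromosome 4, 117994154 to 118037251), the most abundant of the KDM4 genes, was at 122 and 117 CPM in Sirt7-/-, against 112 and 119 CPM in WT (0.04 ± 0.07, adjusted p = 0.899). Kdm4b (chromosome 17, 56632913 to 56714338) was at 57.0 and 66.5 CPM in Sirt7-/-, against 56.0 and 60.7 CPM in WT. Its fold change of 0.08 ± 0.09 (95% interval -0.11 to 0.28) was the highest of the 10 and rested on Sirt7-/- replicate 2. It was -0.03 without that library and 0.19 without Sirt7-/- replicate 1, with a lone Sirt7-/- library left in each fit. Kdm4c (chromosome 4, 74160734 to 74324757), the least abundant member, had 450 and 511 counts in Sirt7-/- and 503 and 500 counts in WT, and it had the widest interval of the 10 (-0.05 ± 0.10, 95% interval -0.28 to 0.17).

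**Figure D2:**
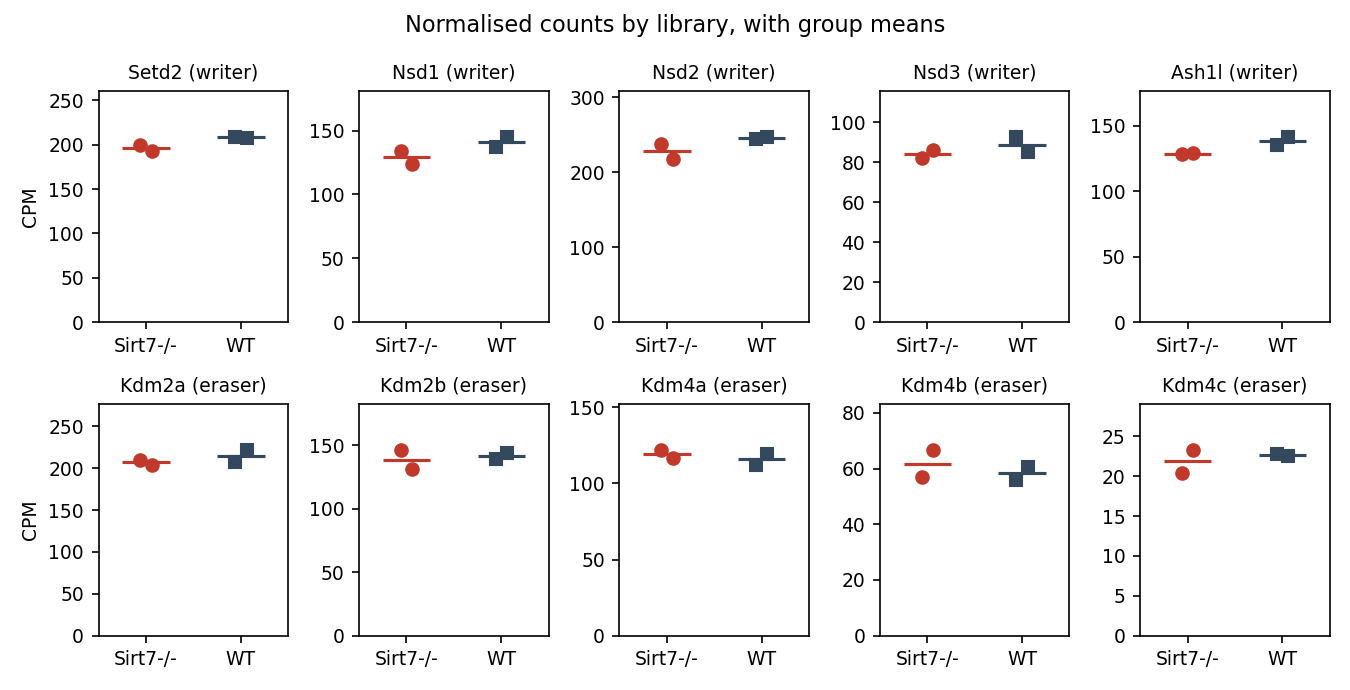
Normalised counts in CPM (y axis, starting at 0 and scaled per gene) for each of the 10 genes, with 1 point per library and a bar at the group mean (circles Sirt7-/- at the left, squares WT at the right, n = 2 each). Setd2, Nsd1, Nsd2 and Ash1l have both Sirt7-/- points below both WT points, and the other 6 genes overlap. Over all genes tested, the genotypes do not overlap in 39.7%, in either direction.

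Writers and erasers were also compared as sums within each library. The summed per-kb level of the writers was 84.6 and 80.9 CPM per kb in Sirt7-/- and 88.4 and 89.0 CPM per kb in WT, whereas that of the erasers was 93.2 and 91.4 CPM per kb in Sirt7-/- and 89.9 and 94.8 CPM per kb in WT. The writers stood at 0.908 and 0.885 times the erasers in Sirt7-/-, against 0.983 and 0.939 times in WT, so that the ratios did not overlap. Whether the writers or the erasers had the larger sum depended on the length used. With the summed length of all exons, the length first used, the ratio was 0.994 and 0.985 in Sirt7-/- and 1.09 and 1.04 in WT. In CPM with no scaling by length it was 1.41 and 1.39 in Sirt7-/- and 1.52 and 1.45 in WT. The canonical length was taken up, and the scales compared, after the data were seen. On all 3 scales both Sirt7-/- ratios lay below both WT ratios, but the scales weigh the same counts and are not separate evidence. The position of the ratios follows from the values of the same genes given above and is a description with no test. Together the 10 genes took 0.133% and 0.129% of all counts in Sirt7-/- and 0.136% and 0.140% in WT.

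**Figure D3:**
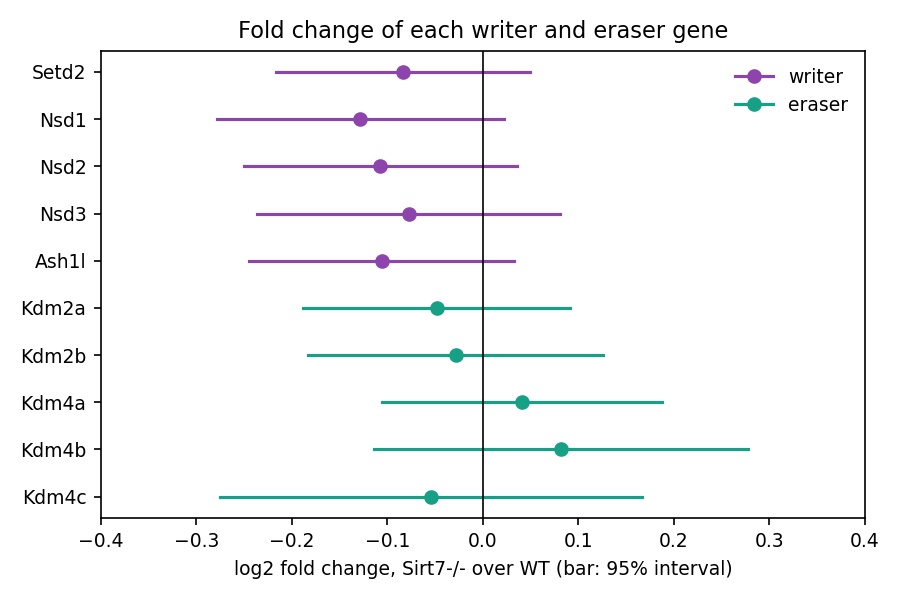
Log2 fold change of each gene, Sirt7-/- over WT (x axis, points), with its 95% interval from edgeR's quasi-likelihood fit (bars), for 2 libraries per genotype. Every interval includes 0, the 5 writers lie between -0.13 and -0.08 and the 5 erasers between -0.05 and 0.08.

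Gene length moved with the fold changes over the whole table. Across 10057 genes at 10 CPM or more, the Spearman correlation of the fold change with summed exonic length was -0.30, a description across genes that share the same 4 libraries. The median fold change was 0.06 in the shortest quartile and -0.04 in the longest, from 9729 bp, where 64.9% of genes were negative. Of the 10 genes, 9 belonged to that longest quartile by length, and only Kdm4a, at 6008 bp, did not. With the trend on length taken out of each library, 0 of 10 were called, the median of the writers was -0.06 and that of the erasers 0.00039. Setd2 and Ash1l then still had both Sirt7-/- libraries below both WT libraries, whereas Nsd1 and Nsd2 overlapped. The share of all genes that stood apart after this correction was not counted. All 5 writers were still negative, from -0.08 for Nsd1 to -0.03 for Nsd3. The part of length in the values of the writers was not tested further. Mitochondrial transcripts took 4.13% to 4.25% of counts in the Sirt7-/- libraries and 4.15% in both WT libraries.

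**Figure D4:**
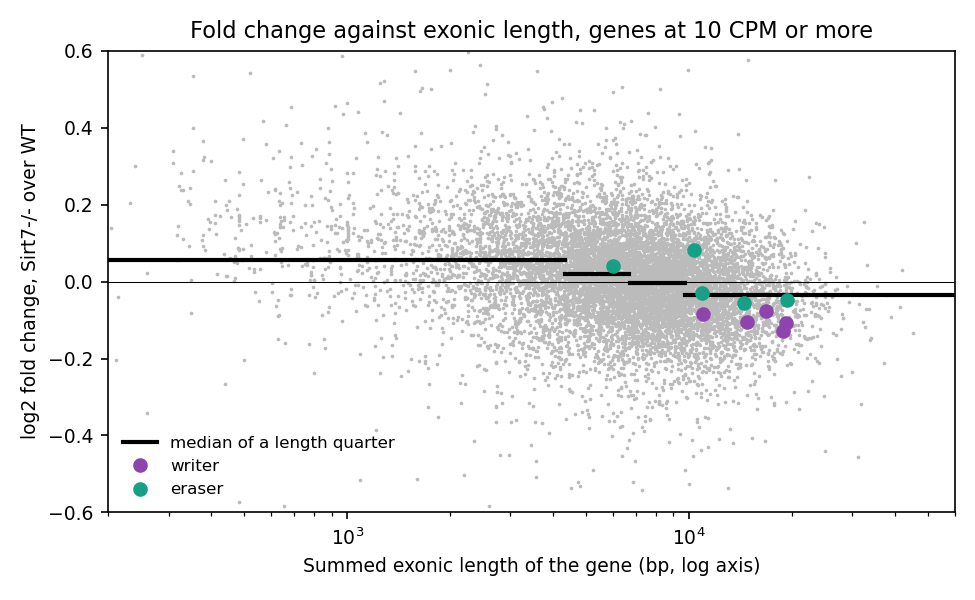
Log2 fold change, Sirt7-/- over WT (y axis), against summed exonic length in bp (x axis, log scale) for 10057 genes at 10 CPM or more (grey), with the median of each length quartile (black lines), the writers and the erasers; 31 genes fall outside the axes. Medians run from 0.06 in the shortest quartile to -0.04 in the longest, and 9 of the 10 genes are of the longest quartile by length.

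Some markers of germ cells and of other cells differed or stood apart between the genotypes. Of 8 markers of undifferentiated spermatogonia 0 were called, and in 6 the libraries overlapped. Etv5 had both Sirt7-/- libraries below both WT libraries (-0.21) and Uchl1 had both above (0.17), each with an unadjusted p under 0.05 (edgeR). Of 5 germ cell markers 0 were called, and Tex14 alone had both Sirt7-/- libraries below both WT libraries (-0.15). Over all genes tested, both Sirt7-/- libraries lay above both WT libraries in 20.3% and below them in 19.4%. In edgeR, 0.0405% of all genes were called higher and 0.0456% lower. An unadjusted p under 0.05 was reached by 4.48% higher and 4.14% lower. All 4 erythroid genes had both Sirt7-/- libraries above both WT libraries, with summed levels of 1330 and 1000 CPM in Sirt7-/- and 885 and 804 CPM in WT. Their smallest adjusted p was 0.164 (edgeR), and 4 of 4 had an unadjusted p under 0.05. Of 7 stromal genes 3 were called lower (Col3a1, Dcn and Postn), and the summed level was 1012 and 1169 CPM in Sirt7-/- and 1144 and 1269 CPM in WT, which overlapped. The other 4 stromal genes were not called, among them Lum at -0.76 and Pdgfra at 0.17 on the log2 scale. The fold changes of all 4 endothelial genes were negative, like those of the writers (median -0.25), and 3 of them had both Sirt7-/- libraries below both WT libraries. Their summed level was 74.0 and 76.5 CPM in Sirt7-/- and 74.0 and 96.6 CPM in WT, which overlapped, and their smallest adjusted p was 0.533 (edgeR), with 1 unadjusted p under 0.05, that of Kdr. The part of these cells in the values of the writers was not tested.

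Exons of Nsd1, Nsd2, Ash1l and Kdm2b overlap those of a protein-coding gene on the other strand, which could touch their counts. The largest overlap was between Nsd2 and Nelfa, at 3070 bp or 15.9% of the Nsd2 exons, and it was 5.89% of the exons for Kdm2b with Rnf34, 2.37% for Ash1l with Dap3 and 0.0371% for Nsd1 with Rab24. Exons of Nsd2, Nsd3, Kdm2b, Kdm4a and Kdm4c also overlap those of non-coding genes, the largest being A930024E05Rik for Kdm2b (3.95%, 389 counts in all 4 libraries) and Gm64237 for Nsd3 (3.71%, 15 counts). The kit keeps strand, but the strand setting of the counting is not given in the sources used here.

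Among the other genes of the pathway, Sirt7 was the only one called by edgeR, by DESeq2 or by limma-voom. Of 6 further writer or eraser genes and relatives, 5 were tested and 0 were called (0 at an unadjusted p under 0.05 with edgeR). Prdm9, which marks recombination sites in meiosis with methylation at lysine 4 and lysine 36 of H3, was near the floor of the measurement at 2.68 and 2.87 CPM in Sirt7-/- and 2.22 and 3.20 CPM in WT (0.03 ± 0.23). Smyd2 was at -0.05 ± 0.09, Riox1 at 0.03 ± 0.13 and Kdm8 at 0.12 ± 0.13. Kdm4d, listed as a relative of Kdm4a and best known from the testis, had 6 and 6 counts in Sirt7-/- and 6 and 2 counts in WT. It did not enter the test.

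Readers of lysine 36 methylation carry the mark to other machinery, often through a PWWP domain. Of 16 readers 0 were called and 1 had an unadjusted p under 0.05, with 13 fold changes negative and a median of -0.04, against 0.0029 over all genes tested. Dnmt3a, a de novo DNA methyltransferase that reads dimethylation, was at 124 and 135 CPM in Sirt7-/-, against 137 and 142 CPM in WT (-0.11 ± 0.07, adjusted p = 0.677). The groups did not overlap, with the upper Sirt7-/- library just below the lower WT library. Dnmt3b, which reads trimethylation, was at 88.8 and 83.9 CPM in Sirt7-/-, against 69.6 and 86.0 CPM in WT, where WT replicate 1 alone was low (0.15 ± 0.09, adjusted p = 0.691). Morf4l1, the gene of the chromodomain protein MRG15, was at -0.02 ± 0.06 and Psip1, a PWWP protein gene, at -0.02 ± 0.07. Phf19, a Polycomb-associated Tudor protein gene, was weakly expressed at 4.05 and 3.19 CPM in Sirt7-/-, against 4.50 and 5.19 CPM in WT (-0.42 ± 0.19, adjusted p = 0.575).

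Among 10 factors of polymerase II elongation and SETD2 function, 0 were called and 0 had an unadjusted p under 0.05. Paf1 and Cdc73, which encode subunits of the PAF1 complex, had fold changes of opposite sign, neither past the threshold. Paf1 was at 184 and 176 CPM in Sirt7-/-, against 164 and 165 CPM in WT (0.13 ± 0.06, adjusted p = 0.599), and Cdc73 at 77.0 and 82.1 CPM in Sirt7-/-, against 88.0 and 87.6 CPM in WT (-0.14 ± 0.07, adjusted p = 0.593). Supt5 and Hnrnpl, the most abundant of this list, were at -0.02 ± 0.06 and -0.04 ± 0.06. Of 9 partners of ASH1L and KDM2B, 0 were called and 1 had an unadjusted p under 0.05. This was Bcor, a subunit gene of the KDM2B Polycomb complex, at 51.1 and 46.2 CPM in Sirt7-/-, against 37.8 and 40.8 CPM in WT. The Sirt7-/- libraries were higher and the groups did not overlap (0.31 ± 0.09, adjusted p = 0.366). Rbbp4 was at 0.09 ± 0.06 and Usp7 at -0.03 ± 0.06.

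Genes of the acetyl mark and of the substrate were measured as well. Kat2a and Kat2b, acetyltransferase genes, did not pass, at -0.06 ± 0.07 and -0.15 ± 0.08. H3f3a, which encodes the replication-independent histone H3.3, was at 331 and 321 CPM in Sirt7-/-, against 301 and 289 CPM in WT (0.14 ± 0.06, adjusted p = 0.546). H3f3b, which encodes the same protein, was at 828 and 878 CPM in Sirt7-/-, against 834 and 801 CPM in WT (0.06 ± 0.06). Both genes have processed copies in the genome that may share reads, so these values are uncertain.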

How the data were processed

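RNA from pellets of Pnd 5 spermatogonia was sequenced as strand-specific mRNA libraries with paired reads of 150 bp. The authors used HISAT2 for alignment to GRCm39 and featureCounts for counting, and deposited raw counts for every gene in whole numbers. Tool versions, the annotation, the strand setting and the handling of multiple alignments: not given in the sources used here. Identifiers were named from GENCODE M39 (78263 of 78275 matched), and an identifier with the most counts kept a shared symbol. No row was without a gene identifier.

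Groups came from the labels. Counts were fitted in R 4.3.3 with edgeR 4.0.16 (filterByExpr with a minimum count of 10, TMM, quasi-likelihood F test without covariates), with Benjamini-Hochberg adjustment over 19736 genes, and genes were called under 0.1, the threshold of the study. The SE was obtained from the log2 fold change and F, and 95% intervals use the t distribution. Intervals cover the spread between libraries only. Alternatives were DESeq2 1.42.0, limma-voom (limma 3.58.1), other scalings and filters, a stricter threshold, the replicate number as a block, a correction for exonic length, and each library left out. Levels per kb were first computed on the summed exon length and then, after the data were seen, on the canonical transcript, and both are given. The fits were tested on simulated data. The writers, erasers, lists and tests were chosen with earlier results of these data known. Named were all 10 genes, Sirt7, Dnmt3a, Dnmt3b, Prdm9, and from each list the called genes or else the 2 most abundant and the 2 of smallest p. Further genes, among them Kdm4d, Kat2a, Kat2b, Dazl, Zbtb16, Clu, Etv5, Uchl1, Tex14, Kdr and the stromal genes, were named after their values were seen.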

Additional observations from a re-analysis of the deposited data

How the results depend on the processing

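The count of called writers and erasers was 0 in every fit run, and of 120 fold changes of single genes under the alternatives 114 kept their direction and 6 turned, all close to 0. Kdm2a was at 0.00039 with the length trend removed and, over the libraries left out in turn, between -0.094 and 0.0019. The ranges over the left-out libraries were -0.11 to 0.050 for Kdm2b, -0.00032 to 0.087 for Kdm4a, -0.030 to 0.19 for Kdm4b and -0.15 to 0.034 for Kdm4c. The number of writers and erasers whose genotypes did not overlap was 2 with the length trend removed, against 4 in the main fit. In the main fit the genotypes did not overlap in 39.7% of all genes tested. The share with the trend removed was not counted. Over all genes, 17 were called, against 48 with DESeq2, 9 at an adjusted p under 0.05, 0 without a filter on low counts and 0 to 465 with a library left out. With the replicate number as a block (replicate block) 236 genes were called, and again 0 of the 10. The numbers do not come from a shared litter or day in the labels, and the deviations of same-numbered libraries correlated at 0.14 over 10062 genes. Among the other pathway genes 1 was called, Sirt7, against 0 without a filter and 0 to 2 with a library left out. Sirt7 was not called without either WT library and was called without either Sirt7-/- library. In each of these fits the lone library is assumed to vary like the other groups. The cause of these shifts was not tested, except that fewer libraries enter the fits that leave one out. Depth was nearly equal in the libraries, and the number of libraries, 2 for each genotype, limits the precision.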
